A study of Mus musculus with 4 samples.

Results

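Promoters of neighbouring genes often lie so close together that a promoter array covers them as 1 stretch of nearby probes. Here the p53 signal in long stretches of nearby probes was described across mouse embryonic stem cells that were either left alone or exposed to DNA damage. Which genes these stretches hold was not mapped. Autosomal probes less than 2000 bp apart were joined into tiles, and tiles longer than 12000 bp were kept. Spots flagged as outliers in either array were left out first, and the rule then uses probe positions alone and no log ratio. It left 752 long tiles among 15779 autosomal tiles (4.77%), and the remaining 15027 served as the background of shorter tiles. The long tiles held 49756 probes over 12.44 Mb, which is 11.2% of all autosomal tiled sequence.

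The measurements were chromatin immunoprecipitation on promoter microarrays (ChIP-chip), with p53-bound DNA set against input DNA of the same cells. R1E cells, a mouse embryonic stem cell line, spent 8 h in growth medium with 1000 units/ml leukaemia inhibitory factor, a cytokine that holds such cells undifferentiated. One group was untreated and the other received 0.5 µM adriamycin (doxorubicin), which damages DNA. From 50000000 fixed cells chromatin was precipitated with 10 µg of the p53 antibody M19, the labels naming no control antibody and no p53-deficient cells, and each group was run on 1 array of each of 2 designs, 4 arrays in all.

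p53 is a transcription factor that binds DNA as a tetramer. It is kept at low levels in unstressed cells by the ubiquitin ligase Mdm2, and DNA damage kinases stabilise it, after which it switches on genes of cell cycle arrest, DNA repair and cell death. In embryonic stem cells it is also known to act on genes of the pluripotent state. Where gene starts are packed closely, by divergent gene pairs or by clusters of related genes, several regulatory elements can share a few kilobases. The files give probe positions without gene names, and the genome build was not given in the sources used here, so tiles are identified by chromosome and position as the files state them.

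Each value below is the log2 of precipitated (IP) over input signal, less the median of its array, so 2 means 4-fold above the array median. A site was a run of 3 neighbouring probes within 1000 bp with a mean of at least 2 and at least 2 probes at 2 or more, and such runs within 500 bp were merged. For the comparison, runs found in either array were merged into 1 set of sites. The level of a merged site is that of its best window, the 3 probes with the highest mean over both arrays, given as mean ± SD over the 3 probes. Those probes are not replicates. With 1 array per condition and design no test could be made and no p is given, the number of arrays limits the precision, and array and treatment cannot be told apart. A site was called higher with adriamycin at a difference of 1 (2-fold) or more, and lower at -1 or less. The spread of single log ratios between neighbouring probes outside sites was 0.70 in both untreated arrays, and 0.57 (design 1) and 0.44 (design 2) in the adriamycin arrays. No best window in a long tile held a saturated spot.

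Long tiles had a median length of 15309 bp (interquartile range 13461 to 17398) and a median of 61 probes. The 5 shortest members measured 12001, 12009, 12020, 12035 and 12039 bp and held 1, 0, 0, 1 and 1 merged sites. The 5 longest tiles left out measured 11964, 11964, 11977, 11980 and 11996 bp and held 0, 0, 1, 0 and 0. Design 1 carried 370 long tiles and design 2 carried 382. Chromosome 7 had the most, 96, followed by chromosome 11 with 89 and chromosome 2 with 72, while chromosome 16 had the fewest, 15. Coverage within a tile was uneven. The median gap between neighbouring probes was 127 bp, but 493 of the tiles contained at least 1 gap over 1000 bp, where no site can be seen.

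**Figure D1:**
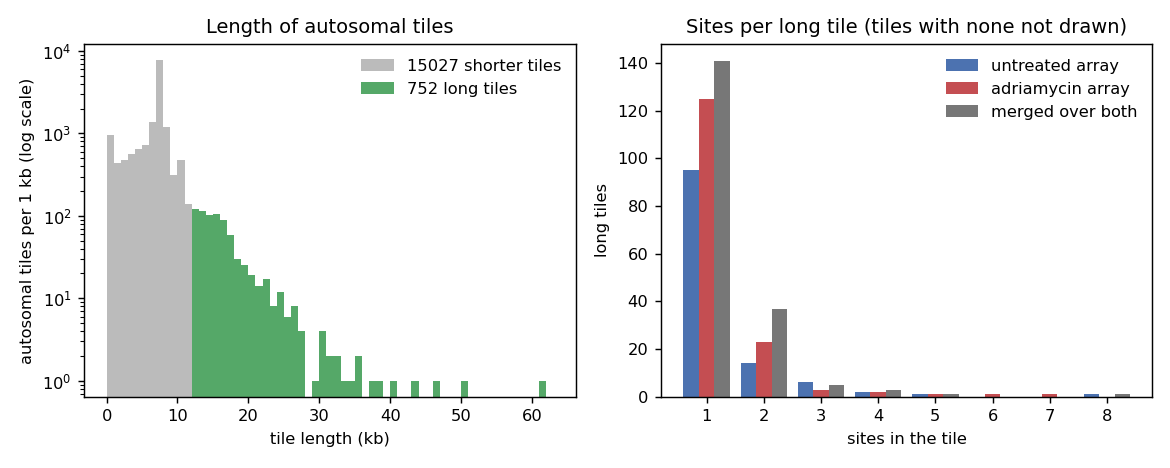
Left, the number of autosomal tiles in each 1 kb class of length (log scale), with the 752 long tiles in green to the right of the 12 kb limit. Right, the number of long tiles (vertical axis) with a given number of sites in the untreated array, the adriamycin array and the merged set. Tiles with 1 merged site (141) far outnumber those with 2 (37), and 564 tiles without a merged site are not drawn.

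Most long tiles had no site, and sites were more numerous in the adriamycin arrays. The untreated arrays had 162 sites (73 from design 1, 89 from design 2), in 119 tiles (15.8%). The adriamycin arrays had 206 (97 and 109), in 156 tiles (20.7%). Single probes of the long tiles went the other way, with 4.19% at 2 or more untreated and 3.65% with adriamycin. Over all autosomal tiles the shares with a site were 10.5% and 11.6%. The same rule with the sign turned, a background count of depleted stretches within the long tiles, gave 8 without treatment and 1 with adriamycin. Merging over both arrays gave 255 sites in 188 long tiles (25%, against 14.6% of all autosomal tiles). Of these tiles, 141 held 1 site, 37 held 2, 5 held 3, 3 held 4, 1 held 5 and 1 held 8. Thus 47 long tiles (6.25%) had at least 2 merged sites, against 1.46% of all autosomal tiles.

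A longer tile offers more sequence, and per length the long tiles were not richer in sites. They had 2.05 merged sites per 100 kb, and the shorter tiles 2.35. Per array the densities were 1.30 (untreated) and 1.66 (adriamycin) per 100 kb in long tiles, and 1.73 and 1.86 in shorter ones. Among the long tiles, the 335 of 12 to 15 kb had 1.96 merged sites per 100 kb, the 309 of 15 to 20 kb had 1.76, and the 108 over 20 kb had 2.74. Of these last, 42 (38.9%) held a site and 19 (17.6%) held at least 2. These densities are descriptions, and the difference between long and shorter tiles was not tested.

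Sites lay along the whole of a long tile. With each tile cut into 5 equal parts, in order of position, the shares of the 255 sites were 24.3%, 19.6%, 16.9%, 17.3% and 21.96%, and the shares of all windows were 20.9%, 19.6%, 18.2%, 19.9% and 21.4%. Shorter tiles had another profile, with 27.6% and 25.8% of their sites in parts 2 and 4, where 21.1% of windows lay in each, and 14.9% in the middle part (20.04% of windows). Measured from the nearer end of a long tile, sites per 1000 windows numbered 5.60 within 1 kb, 6.39 from 1 to 2 kb and 6.87 from 2 to 3 kb. Further in they numbered 4.28 from 3 to 4 kb, 5.86 from 4 to 6 kb and 5.58 beyond 6 kb. In shorter tiles the corresponding values were 4.78, 8.39, 8.09, 4.76 and 6.31, and their length leaves no window beyond 6 kb.

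**Figure D2:**
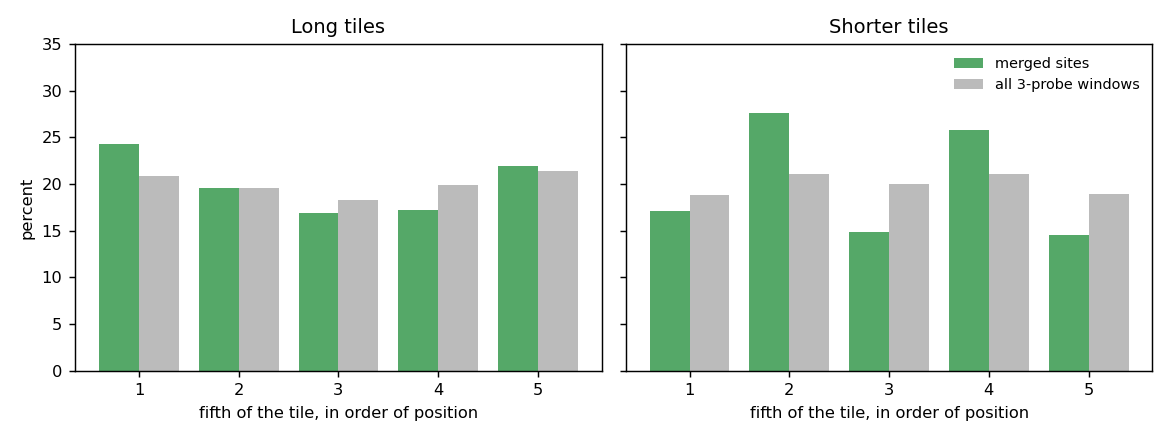
Share in percent (vertical axis) of merged sites (green) and of all 3-probe windows (grey) in each of 5 equal parts of a tile in order of position, for long tiles (left) and shorter tiles (right). In long tiles both sets of bars run between 16.9% and 24.3%, while in shorter tiles sites peak in parts 2 (27.6%) and 4 (25.8%).

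The 5 highest sites were picked by their mean over both arrays, so high levels in both conditions follow largely from the choice. On chromosome 7, a site from 102353227 to 102353824, in a tile of 24.2 kb, reached 5.35 ± 0.50 in the untreated and 4.81 ± 0.24 with adriamycin. Another site on chromosome 7, from 45334138 to 45335031, had 4.39 ± 1.92 and 4.87 ± 2.01, with 1 of its 3 probes well below the others in both arrays. The other three were wide. On chromosome 15, the site from 102798413 to 102807549 (9137 bp) had 5.57 ± 0.05 untreated and 4.10 ± 0.16 with adriamycin, a difference of -1.47, IP changing by -0.19 and input by 1.33. On chromosome 2, the sites from 74475243 to 74485669 (10427 bp) and from 74465605 to 74474073 (8469 bp) had 4.83 ± 0.38 and 4.62 ± 0.24 untreated, and 4.57 ± 0.48 and 4.58 ± 0.14 with adriamycin. Untreated and adriamycin values thus differed by 2-fold or more in 1 of these 5 sites, and in that site the difference came with a change of input. Log ratios spread more in the untreated arrays (SD 1.06 and 1.07) than in the adriamycin arrays (0.94 and 0.91). With the adriamycin arrays scaled to equal spread, 2 of the 5 differences kept their sign. They then ran from -0.70 (the chromosome 15 site) to 1.12 (the chromosome 7 site from 45334138).

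A few tiles held very wide sites. Sites of more than 5000 bp numbered 18, lay in 12 tiles and took up 40.5% of all sequence in sites of the long tiles, against 22.5% in shorter tiles. Shorter tiles had a median length of 7522 bp and a maximum of 11996 bp, which limits the width of their sites, so these shares are not directly comparable. Their levels ran from 3.39 to 5.57 untreated and from 3.44 to 4.58 with adriamycin. The difference was negative in 15 of the 18, ran from -1.47 to 0.88, and was called lower in 2 and higher in 0. Shorter tiles were alike in this, with a negative difference in 107 of their 114 sites of that width, 13 lower and 0 higher. Both lower ones were neighbours in a tile of 17.9 kb on chromosome 15, at 102789619 to 102797723 and 102798413 to 102807549. The widest site, 15213 bp on chromosome 6 from 52128415 to 52143627, had 4.14 ± 0.30 and 3.92 ± 0.21. Of the 3 wide sites with a positive difference, the largest was on chromosome 2 from 18588819 to 18597483, which went from 3.39 ± 0.68 to 4.27 ± 0.47. Signs of these differences depended on scaling. At equal spread of the arrays, the wide chromosome 2 sites among the 5 highest had 0.34 and 0.57. The lower site from 102798413 had -0.70 there, under 2-fold. Counts at equal spread are not given for the wide sites.

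The tile with most sites lay on chromosome 18 from 37857705 to 37884212 (26.5 kb, 105 probes) and held 8 merged sites. Their untreated levels ran from 2.46 to 3.64 and their adriamycin levels from 1.68 to 3.4, and all 8 differences were under 2-fold, from -0.78 to 0.17. The highest, from 37867817 to 37869558, had 3.64 ± 0.18 and 3.4 ± 0.18. Only the site from 37859401 to 37860548 was called in the untreated array alone (2.46 ± 0.30 against 1.68 ± 0.68). Upstream on the same chromosome, the tile from 37782473 to 37822772 (40.3 kb) held 4 sites called in the untreated array and 0 in the adriamycin array. Their levels were 2.42 ± 0.48, 2.62 ± 0.33, 2.86 ± 0.31 and 2.57 ± 0.35 untreated, and 1.46 ± 0.54, 1.91 ± 0.32, 1.68 ± 0.09 and 1.96 ± 0.13 with adriamycin. All 4 were lower with adriamycin and stayed below the site threshold there, and 1 passed the 2-fold rule (-1.18, IP changing by -0.63 and input by 0.59). A further tile of this stretch, from 37598894 to 37645657 (46.8 kb, 184 probes), had no site, and its highest windows reached 1.64 and 1.35.

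On chromosome 2, the tile from 74457946 to 74501023 (43.1 kb, 217 probes) was covered by signal nearly throughout. Its 5 merged sites took up 89.4% of its length, and its median probe stood at 3.48 untreated and 3.14 with adriamycin, against -0.02 and 0.01 over all probes of long tiles. Besides the 2 sites given above, the site from 74487432 to 74501023 (13592 bp) had 5.03 ± 1.32 and 4.10 ± 0.70, the site from 74457946 to 74463096 had 4.68 ± 0.48 and 4.21 ± 0.60, and a narrow one from 74463627 to 74464499 had 2.62 ± 0.76 and 1.89 ± 1.11. All 5 differences were negative and under 2-fold, from -0.93 to -0.03. At equal spread of the arrays, those of the 2 sites given above were 0.34 and 0.57. The probes between the sites had medians from 0.74 to 1.72 untreated and from 0.26 to 1.61 with adriamycin in 3 of the 4 intervals, and the remaining interval of 1762 bp held no probe, so the sites on its sides could be continuous.

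Neighbouring tiles on chromosome 6 looked alike. From 52085480 to 52109480 (24.0 kb) 3 sites had 3.46 ± 0.46, 3.83 ± 0.62 and 4.77 ± 0.92 untreated, and 3.15 ± 0.46, 3.76 ± 0.42 and 3.87 ± 0.51 with adriamycin. From 52118513 to 52143627 (25.1 kb) 4 sites included the widest one, a site with 3.98 ± 0.46 and 3.21 ± 0.57 and a site with 2.64 ± 0.47 and 2.59 ± 0.60. The remaining one, from 52126401 to 52126759, was called with adriamycin alone, at 1.37 ± 0.56 and 2.15 ± 0.80. None of the 7 changed by 2-fold.

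The other tiles named for their number of sites were shorter. On chromosome 18 the tile from 80867826 to 80880485 (12.7 kb) packed 4 sites, of which the widest, from 80873421 to 80877517, had 3.70 ± 0.14 and 3.02 ± 0.13. The tile on chromosome 1 from 74816308 to 74839238 held 3 sites with 4.28 ± 0.23, 3.16 ± 0.95 and 2.98 ± 0.29 untreated, and 3.74 ± 0.3, 2.502 ± 0.71 and 2.18 ± 0.48 with adriamycin. On chromosome 11, 3 sites between 74983327 and 75000310 had 2.72 ± 0.46, 2.04 ± 0.36 and 2.30 ± 0.61 untreated, and 2.12 ± 0.26, 1.26 ± 0.23 and 1.85 ± 0.24 with adriamycin. All 6 sites of these last 2 tiles were lower with adriamycin by less than 2-fold.

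**Figure D3:**
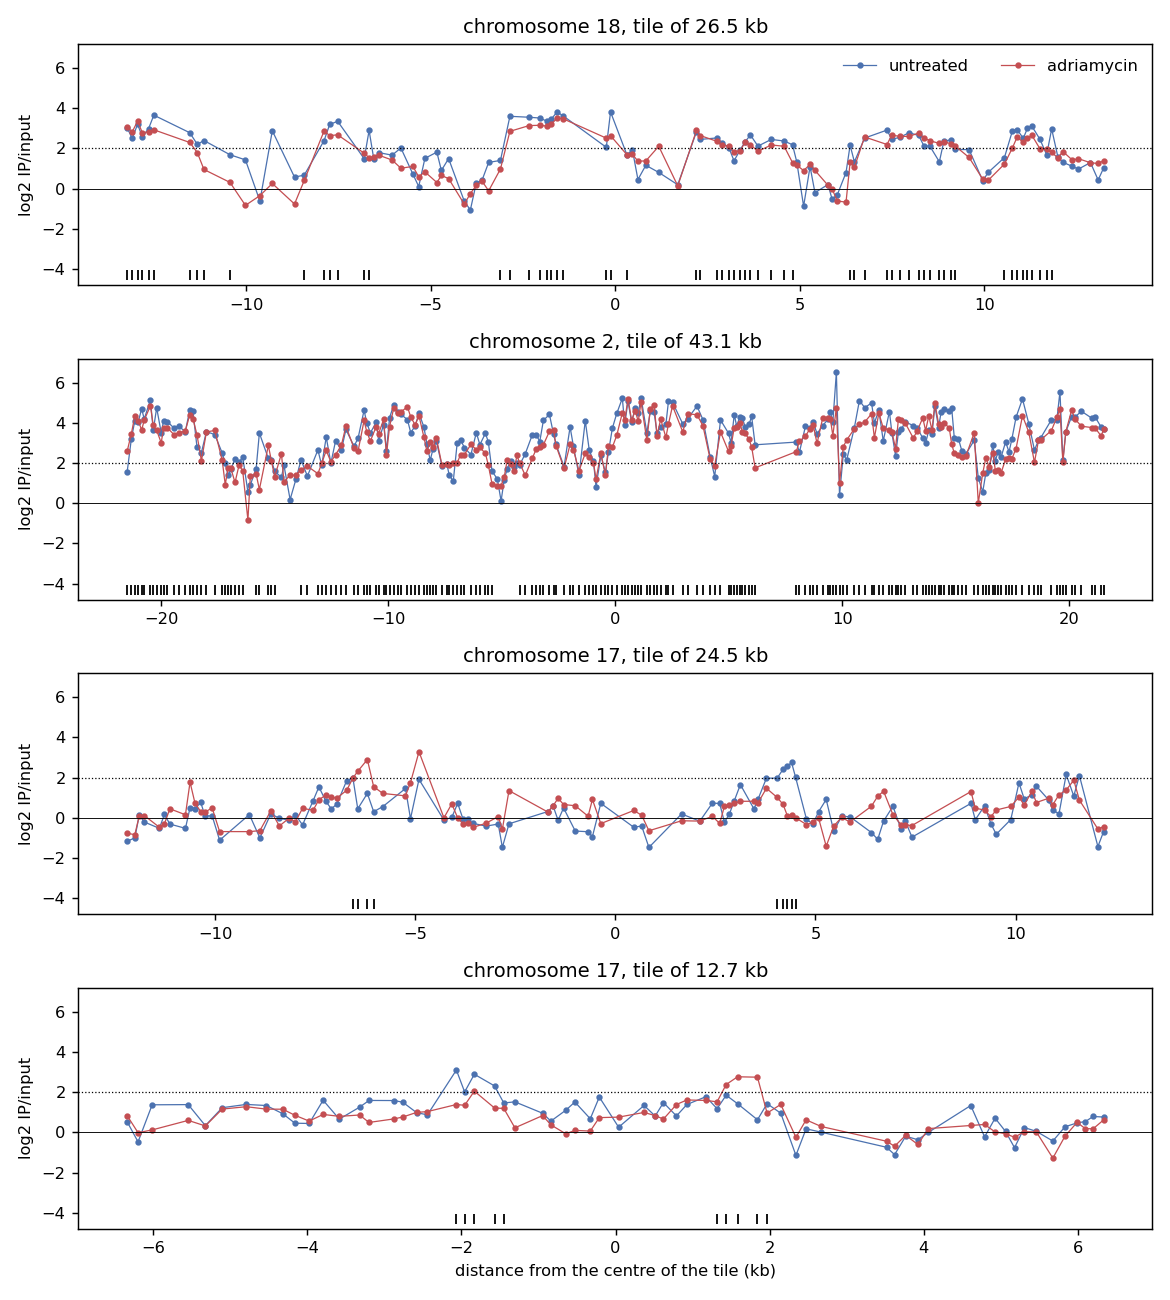
Centred log2 ratio of IP and input signal (vertical axis) at each probe against its distance from the centre of the tile in kb, for 4 long tiles, untreated in blue and adriamycin in red. Ticks at the bottom mark probes inside merged sites and the dotted line is the site threshold of 2. The tiles on chromosomes 18 (8 sites) and 2 (5 sites) run at similar levels in both arrays, while each tile on chromosome 17 has 1 site that is higher and 1 that is lower with adriamycin.

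Of the 5 longest tiles, 2 were also among the 8 with most sites, those on chromosomes 2 and 18 described above. The longest, 61.6 kb on chromosome 9 from 107386758 to 107448389 with 274 probes, held 2 sites close to each other. The site from 107433442 to 107434362 had 2.67 ± 1.23 untreated and 3.00 ± 0.59 with adriamycin, and the site from 107435000 to 107435308 went from 0.37 ± 0.55 to 2.08 ± 0.39. The next, 50.7 kb on chromosome 7 from 141278269 to 141328934, held a site that went from 1.22 ± 0.36 to 2.81 ± 0.78 and another with 2.74 ± 1.07 and 3.61 ± 1.103. Among the 5 longest tiles without a site, the tile of 38.5 kb on chromosome 3 from 89486588 had its highest windows at 0.76 and 1.37. Those on chromosome 6 from 83067314 (37.9 kb) reached 1.38 and 1.62. Chromosome 13 had 18 long tiles and 0 sites, and its tile from 23740809 to 23774929 (34.1 kb, 153 probes) reached 1.73 and 1.21. All of these maxima lay below the site threshold.

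For the effect of adriamycin, the 255 merged sites had a median level of 2.30 untreated and 2.47 with adriamycin, and a median difference of 0.22 (interquartile range -0.60 to 1.00). The sign of this median depended on the rule: it was -0.12 at a site threshold of 2.5, -0.21 when all 3 probes had to pass, -0.20 when tiles were joined at 1000 bp and -0.003 for tiles over 15000 bp. In shorter tiles the median difference was -0.17. Of the 255, 104 were called in both arrays, 96 with adriamycin alone and 55 in the untreated array alone. Higher sites numbered 64 (25.1%) and lower ones 33 (12.9%), against 19.2% and 14.1% of all 2570 autosomal merged sites, and 4.06% and 5.44% of autosomal windows in no site. Under the main rule the share of higher sites was thus somewhat above the background and that of lower sites close to it, a difference that was not tested. Higher sites numbered 35 of 157 at a threshold of 2.5 and 33 of 166 when all 3 probes had to pass. They were 30 of 147 with joining at 1000 bp and 42 of 167 in tiles over 15000 bp. The background was not recomputed for these rules, so the excess is not shown to hold under them. Which direction prevailed did not change with the scaling, but its extent did: there were 145 higher and 21 lower sites with both arrays at equal spread, 123 and 5 with a common input for both arrays, 70 and 8 in the authors' deposited table, 39 and 10 with normexp background correction, and 35 and 1 with normexp without extreme local backgrounds.

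Part of the higher share lay in narrow sites. Of the 47 sites up to 500 bp wide in long tiles, 22 were higher (46.8%) and 7 lower, while of 442 such sites in shorter tiles 102 were higher (23.1%) and 128 lower. From 500 to 1000 bp, 31 of 118 were higher (26.3%) in long and 269 of 858 (31.4%) in shorter tiles. From 1000 to 2000 bp, 11 of 50 (22%) and 55 of 497 (11.1%) were higher. Above 2000 bp, 0 of 40 and 3 of 518 were higher, and 5 of 40 and 44 of 518 lower. Input signal was brighter in long tiles, with a probe median 0.44 above the array median without treatment and 0.45 with adriamycin, against -0.01 in both for shorter tiles. Probes were also shorter, with a median of 53 against 57 bases. The part of input and probe length in these shares was not tested.

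Higher sites came with more IP signal. Of the 64, spread over 57 tiles and 16 chromosomes, all had a higher IP signal alone, by at least 1 in 62, with a median of 1.55, and a median input change of 0.13. Their median level was 1.31 untreated and 2.55 with adriamycin, and 23 of them lay below 1 when untreated. Since 56 of the 64 were sites in the adriamycin array alone, and all were picked for their difference, these levels and IP changes describe the choice and support nothing. The lowest input change of any site in long tiles was -0.70, so a difference of 1 or more required a higher IP signal. Lower sites mostly came with both less IP and more input signal. Of the 33, 30 had a lower IP signal alone, by at least 1 in 4, and 23 an input higher by 1 or more. Their median IP change was -0.54 and their median input change 1.54. Untreated input at the lower sites had a median of 2.28 below the array median (-2.28), while over all 255 sites it was 0.98 above it. A spot not well above background occurred in 10 of the 33 lower sites and in 0 of the 64 higher ones.

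**Figure D4:**
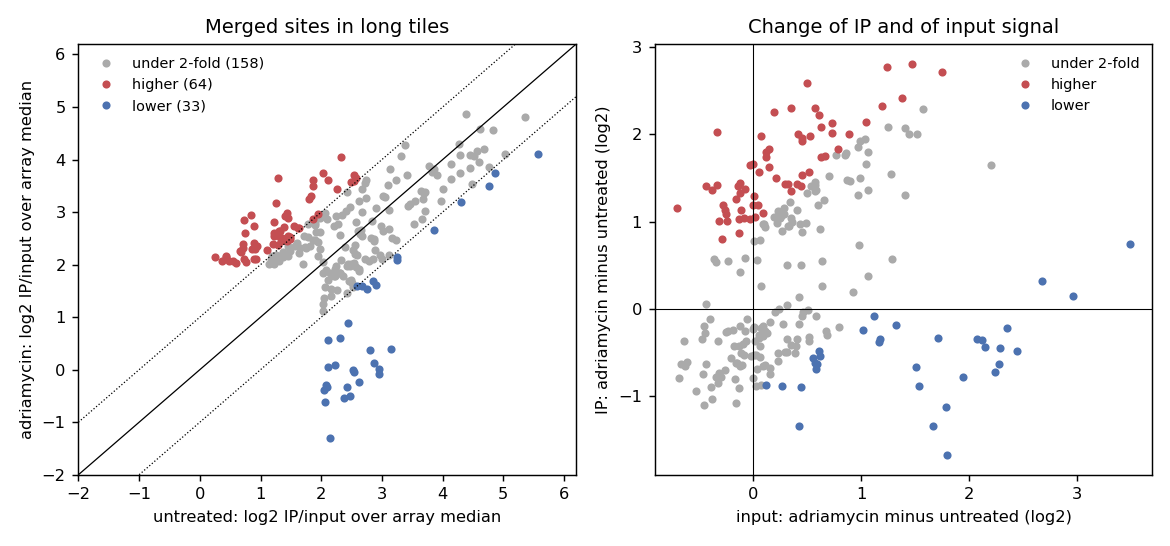
Left, adriamycin against untreated log2 ratio of the 255 merged sites in long tiles; the solid line marks equal values and dotted lines a 2-fold difference. Right, change of the IP signal against change of the input signal (both adriamycin minus untreated, log2). The 64 higher sites (red) sit at IP changes above 0, and most of the 33 lower sites (blue) lie to the right, at input changes up to 3.49.

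The 6 largest rises, in sites of 322 to 1280 bp, were called with adriamycin alone. The largest, on chromosome 2 from 121049944 to 121051066, went from 1.29 ± 0.64 to 3.64 ± 0.51 (5.08-fold). Its probes starting at 121050415, 121050545 and 121050685 read 1.045, 2.02 and 0.82 untreated, and 3.07, 4.06 and 3.78 with adriamycin, so each was more than 4-fold higher. Its IP signal alone was higher by 2.03 and its input lower, with a change of -0.33. On chromosome 15, a rise from 0.72 ± 0.93 to 2.85 ± 0.52 (4.38-fold) was seen between 76532546 and 76533313, where IP was higher by 2.59. On chromosome 11, the levels between 98617254 and 98618040 were 0.85 ± 0.56 and 2.95 ± 0.38 (4.301-fold). Those between 30460315 and 30461594 of chromosome 7 were 1.25 ± 0.67 and 3.18 ± 0.85 (3.82-fold). The site on chromosome 2 from 18585195 to 18585516, in the same tile as the wide site that went from 3.39 to 4.27, went from 0.24 ± 0.36 to 2.14 ± 0.25, and the site on chromosome 8 from 87794378 to 87794811 from 0.75 ± 0.26 to 2.601 ± 0.3. Relative to the other probes of its own tile, each of these 6 rises still measured between 1.61 and 2.17. In all 6 the rise exceeded the SD of the difference over the 3 probes, as in 63 of the 64 higher sites. The 6 were picked for their size, so this adds no support. The site from 18585195 had an untreated input 1.28 below the array median (-1.28). Normexp gave it a rise of 0.22, and of 0.61 without extreme local backgrounds. At the chromosome 8 site IP changed by 1.16 and input by -0.70, and normexp gave 0.60, or 1.05 without extreme local backgrounds. Normexp kept 4 of the 6 at a size of 1, and 5 without extreme local backgrounds.

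The 6 largest falls all had a dim untreated input, 2.83 to 4.81 below the array median. The largest, on chromosome 19 from 12159229 to 12159731, dropped from 2.14 ± 0.97 to -1.29 ± 1.35, IP changing by -1.68 and input by 1.798. On chromosome 1, levels between 175885292 and 175885795 were 2.95 ± 0.52 and 0.01 ± 0.4, IP changing by -0.48 and input by 2.45. On chromosome 2, levels between 163878718 and 163879480 were 2.37 ± 1.19 and -0.55 ± 0.73, with input brighter by 2.28. The other three, on chromosome 7 from 107886227 and from 104801690 and on chromosome 9 from 38264427, each held at least 2 untreated input spots not well above background. Their differences were -3.03, -2.98 and -2.86. These falls are given without a fold. With a common input the 6 differences ran from -1.67 to -0.51, and 3 kept a size of 1.

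A lower site with a bright input and a falling IP signal was rarer. The site on chromosome 17 from 33808726 to 33809239 was the only lower one in long tiles with an IP change of -1 or less and no spot close to background or dim input. Its levels were 2.32 ± 0.31 and 0.596 ± 0.46, IP changing by -1.34 and input by 0.42, and its untreated input stood 0.63 above the array median. This site was singled out after its values were seen.

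The 47 tiles with at least 2 sites gave 67 pairs of neighbouring sites. The best windows of a pair lay a median of 5488 bp apart (interquartile range 3217.5 to 8216), and 8 pairs lay within 2000 bp, 28 within 5000 bp and 11 beyond 10000 bp. The merging rule leaves no pair with less than 500 bp between its edges, and the tile's length sets the upper limit. In shorter tiles 193 pairs had a median distance of 2887 bp. Between the sites of a pair the median probe stayed under 1 in both arrays in 37 of the 67 pairs, and reached 1 in at least 1 array in 24. In the remaining 6 there was no probe between the sites, so that these could be continuous. The closest pair was that of the longest tile, 1109 bp apart on chromosome 9. The most distant pair, 23274 bp apart on chromosome 8, had 80 probes between its sites, with medians of -0.14 and -0.02.

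**Figure D5:**
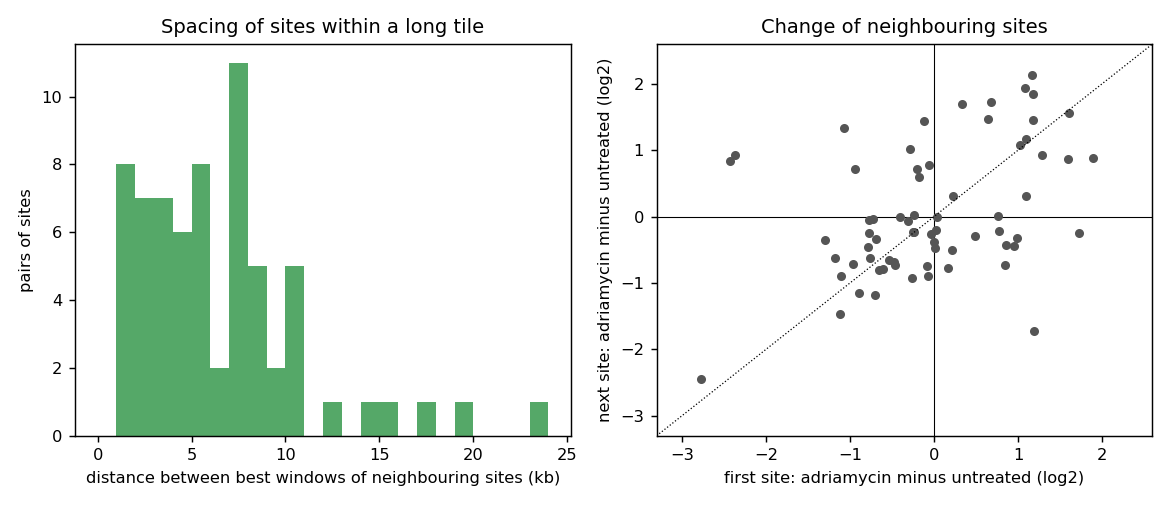
Left, number of pairs of neighbouring sites in the same long tile by the distance between their best windows in kb. Right, difference (adriamycin minus untreated, log2) of the next site against that of the first in order of position, for the same 67 pairs, with a dotted line at equal values. Differences have the same sign in 44 pairs, and 2 pairs combine a higher with a lower site.

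Neighbouring sites of the same tile had more similar differences than pairs of sites from different tiles, but these pairs come from unlike sets of sites. The median size of the gap between the differences of neighbours was 0.66, against 1.11 over the 16177 pairs of sites in different long tiles of the same design. By design, it was 0.78 against 1.15 on design 1, and 0.36 against 1.08 on design 2. Neighbours had the same sign in 44 of 67 pairs (65.7%), pairs from different tiles in 49.6%. Across the 67 pairs Pearson's r was 0.41. It was 0.15 over the 30 pairs of design 1 and 0.60 over the 37 of design 2, where 17 and 27 pairs shared their sign. The 193 neighbouring pairs of shorter tiles were similar, with a median gap of 0.63, the same sign in 61.1% and r of 0.31. Neighbouring sites share arrays, tile and chromatin, several pairs come from 1 tile, and this is a description without a test. Neighbours come only from tiles with at least 2 sites, while pairs from different tiles draw on all 255 sites. In the 10 tiles with 3 or more sites, 33 of 40 differences were negative. The part of this choice of tiles in the contrast was not tested. Of the 67 pairs, 39 had no site changed by 2-fold, 17 had 1, and 9 had both changed in the same direction. Of these 9, both sites were higher in 7 and lower in 2. In the 193 pairs of shorter tiles the counts were 112, 71 and 9, with both higher in 3 and lower in 6.

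In 7 of the 67 pairs both sites were higher with adriamycin, against 3 of 193 in shorter tiles, a difference that was not tested. On chromosome 7, the sites from 30441365 to 30441966 and from 30460315 to 30461594, 19031.5 bp apart, went from 1.62 to 2.70 and from 1.25 to 3.18. The 53 probes between them had medians of -0.05 and 0.16. On chromosome 8, the sites from 87950467 to 87951914 and from 87973923 to 87975393, the most distant pair, went from 1.94 to 2.96 and from 2.49 to 3.57. On chromosome 15, sites 10361.5 bp apart went from 2.55 to 3.71 and from 0.72 to 2.85, and on chromosome 17, sites 14205.5 bp apart went from 1.29 to 2.38 and from 2.27 to 3.44. Pairs on chromosomes 10 (1.55 to 2.73 and 1.80 to 3.26), 5 (0.93 to 2.11 and 0.90 to 2.74) and 19 (0.71 to 2.33 and 0.67 to 2.23) completed the set. Among the 5 pairs farthest apart here, on chromosomes 7, 8, 17, 15 and 10, the median probe between the sites stayed at 0.38 or below in both arrays.

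A higher and a lower site in the same tile were found in 2 of the 47 tiles, both on chromosome 17. These were 2 of the 67 neighbouring pairs, against 1 of 193 in shorter tiles, which was not tested. In the tile from 33792476 to 33816937 (24.5 kb), the site from 33798125 to 33798689 went from 1.21 ± 0.76 to 2.40 ± 0.47, and the site singled out above, 10547.5 bp away, went the other way. The SD of the rise over its 3 probes was 1.02, against a rise of 1.19, so this rise is not far above the spread of its probes. In the tile from 23465673 to 23478389 (12.7 kb), the site from 23469942 to 23470603 had 2.67 ± 0.58 and 1.595 ± 0.4, its IP changing by -0.56, and the site from 23473322 to 23474020, 3587.5 bp away, had 1.3 ± 0.62 and 2.63 ± 0.22, its IP changing by 1.503.

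The 10 tiles with 3 or more merged sites held 40 sites, of which 1 was higher, 3 were lower and 33 had a negative difference, with a median of -0.46. The 37 tiles with exactly 2 held 74 sites, of which 25 were higher and 9 lower (median 0.66). Tiles with 1 site had 38 higher and 21 lower among 141 (median 0.53). Differences thus did not follow the number of sites step by step, and the 10 tiles with 3 or more stood apart. Their sites had a median width of 1350.5 bp, against 786 bp in tiles with 2 and 680 bp in tiles with 1. Their median level was 2.87 untreated, against 2.19 and 2.14, and 2.47 with adriamycin, against 2.63 and 2.41. The part of width, of untreated level and of the wider spread of log ratios in the untreated arrays in these differences was not tested.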

How the data were processed

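The 4 Agilent promoter arrays comprised 1 per condition and design. Per the labels' protocols, input was labelled with Cy3 and p53 IP DNA with Cy5 after ligation-mediated PCR, and dyes were not swapped. Per the file headers, Agilent Feature Extraction 10.1.1.1 read the images. The deposited processed signals used here are spot intensities less background, multiplied by a dye factor. The authors' deposited value table has log2 ratios. Their processing was not given in the sources used here. All its filled values equalled, within 1e-06, the log2 ratio of background-subtracted spot medians, IP over input, so its scale and direction are known and it is not centred (column medians -0.94 and -1.00 on design 1, -0.93 and -0.45 on design 2).

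Control spots, unplaced probes and outlier spots of either array were removed, keeping 236817 and 236686 probes. Log2 ratios of the processed signals had the median of their array subtracted, without loess or quantile normalization. Tiles and sites were made with the rules given above in Python 3.11.15 (numpy 2.4.6, pandas 2.3.3) and normexp was run in limma 3.58.1 on spot medians, the files holding no mean spot signal. Tiles and sites named in the text were those with the greatest length (5), most sites (8), highest level (5), largest rise and fall (6 each), smallest and largest spacing (4 each), opposite changes, and no site (5 longest). The members and lists were chosen with earlier results of these data known. The site rule was also run on simulated data with independent noise, without dim spots or wide sites, and no result here rests on it. Nothing could be tested between conditions, for want of replicates. Genes and sequences were not used here, as the available tables are of a build not matched to the files.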

Additional observations from a re-analysis of the deposited data

How the results depend on the processing

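No paired analysis was possible because no condition had more than 1 array on a design, so no replicate could be left out either. Of the 17 settings run for them, untreated, adriamycin and merged site counts stayed within 1.5 times of 162, 206 and 255 in 12, 10 and 10, and tiles with at least 2 sites (47) in 11. Higher (64) and lower (33) counts stayed so in 10 of 20 settings each. The cause was not tested unless the setting itself gives it. Joining probes at 1000 bp left 355 long tiles, 105 untreated, 122 adriamycin and 147 merged sites, 30 tiles with at least 2 sites, 30 higher sites and a median difference of -0.20. A length minimum of 15000 bp left 417 tiles, 104 untreated, 132 adriamycin and 167 merged sites, 42 higher, 20 lower and a median of -0.003, and one of 10000 bp gave 1366 tiles. A site threshold of 1.5 gave 271 untreated, 335 adriamycin and 424 merged sites, 99 tiles with at least 2, 100 higher and 77 lower. A threshold of 2.5 gave 129 adriamycin and 157 merged sites, 25 such tiles, 35 higher, 21 lower and a median of -0.12. With all 3 probes at the threshold there were 132 adriamycin and 166 merged sites, 26 such tiles, 33 higher, 16 lower and a median of -0.21. Normexp, which shrinks ratios of dim spots by construction, gave 69 untreated, 93 adriamycin and 110 merged sites, 18 such tiles, 39 higher and 10 lower, and without extreme local backgrounds 77, 115, 123, 18, 35 and 1. The deposited table gave 8 lower sites. A common input gave 123 higher, 5 lower and a median of 0.95, and equal spread 145, 21 and 0.92. A change of 1.5-fold gave 108 higher and 65 lower. Taking the change relative to the rest of the tile, chosen after seeing the data, gave 51 higher and 31 lower. None of the 6 named rises or 6 named falls turned its sign in the settings that gave it a value. Signs were less stable in the 5 highest sites, of which 2 kept theirs at equal spread and 4 with normexp. Normexp kept 4 rises and 0 falls at a size of 1, and without extreme local backgrounds 5 and 0. In 10 of the 33 lower sites a spot was not well above background, which limits their values.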

Other observations

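Chromosome X, which the rule for long tiles leaves out, lies on design 2 alone and had 14 tiles longer than 12000 bp among 614. These held 6 sites without treatment and 4 with adriamycin, 7 after merging (3.27 per 100 kb). Of the 7 merged sites, 1 was higher and 4 were lower with adriamycin, with a median difference of -2.70. The median input signal of their tiles' probes was 0.77 below the array median in the untreated array (-0.77) and 0.79 below it with adriamycin (-0.79). With 7 sites on 1 pair of arrays these are values only.

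Within the 188 autosomal long tiles that held a site, the probes outside sites changed little. At the 255 sites, the median probe of the rest of the tile stood at 0.05 untreated and 0.11 with adriamycin (medians over sites), and its difference had an interquartile range of -0.04 to 0.21. Among the 64 higher sites, 47 still rose by 1 or more relative to the rest of their tile, and among the 33 lower ones 27 still fell by as much.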
